A study of Mus musculus with 30 samples.

Results

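CC chemokines are small secreted proteins that draw leukocytes towards a tissue. The 10 genes described here, Ccl2, Ccl3, Ccl4, Ccl5, Ccl6, Ccl7, Ccl8, Ccl9, Ccl12 and Ccl24, were taken by name from the 50764 gene models measured in every library, and each matched 1 model. All 10 passed the low count filter in macrophages and in PDPN+ cells. In the mouse, Ccl2, Ccl7 and Ccl12 attract monocytes through the receptor Ccr2, and Ccl8 is a ligand of Ccr8. Ccl3, Ccl4 and Ccl5 attract monocytes and T cells, Ccl3 and Ccl5 in part through Ccr1, and Ccl6 and Ccl9 are Ccr1 ligands that resident macrophages make in the steady state. Ccl24 attracts eosinophils through Ccr3 and is a marker gene of macrophages exposed to interleukin 4. Many of these genes are switched on by NF-kappaB downstream of tumour necrosis factor and interleukin 1.

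The libraries hold polyA RNA of 2 mouse cell types, in 10 groups of 3. Macrophages were cultured and then sorted on F4/80. They came from cultures with 1 uM BMS493, which acts at retinoic acid receptors as an inverse agonist, from direct co-culture with PDPN+ cells, from culture across a transwell membrane from them, from culture with 1 uM all-trans retinoic acid (ATRA) and from culture alone. A further group was taken from peritoneal lavage and analysed ex vivo. Stromal cells of the omentum that carry podoplanin (PDPN+) came from cultures with 1 uM BMS493, from co-culture, from transwell culture and from culture alone. Whether macrophages and PDPN+ cells were together in the BMS493 cultures is not in the labels, and BMS493 groups are set against both co-culture and culture alone. The labels also do not say that replicates come from separate animals or cultures, so p-values measure the spread between these samples only. For the co-culture libraries of batch mbb336, title and source name give opposite cell types, and the titles were used. The title of the series names vitamin A, from which cells make retinoic acid.

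Replicates 1, 2 and 3 of every group belong to the batches that the labels call mbb336, mbb339 and mbb340. Where 3 values stand in a row below, they are for these batches in this order, in CPM (a gene's share of the library's counts, scaled by TMM factors). Fewer cells that express a gene and less of its RNA per cell cannot be told apart in these bulk libraries. Library totals ran from 29350158 to 54099085 counts. Adgre1, the F4/80 gene, lay between 0.674 and 66.1 CPM in PDPN+ libraries and between 1794 and 4916 CPM in macrophage libraries. Batch mbb340 stood apart for the chemokines. The 10 genes held 0.996% to 4.07% of all counts in its 5 cultured macrophage libraries, 0.204% to 0.805% in batch mbb339 and 0.0454% to 0.435% in batch mbb336. Ex vivo macrophages spent 0.388%, 0.698% and 0.336% of their counts on them in batches mbb340, mbb339 and mbb336, and PDPN+ libraries 0.0166% to 0.271%. Results for the 10 genes are therefore given within batches, or with batch as a block where that changes a call. Some are given from the 2 libraries a group that remain without batch mbb340. Comparisons of groups for receptors, inducers and NF-kappaB genes come from the 3 batches together, without the block. Whether their calls hold with the block or without a batch was not tested.

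**Figure D1:**
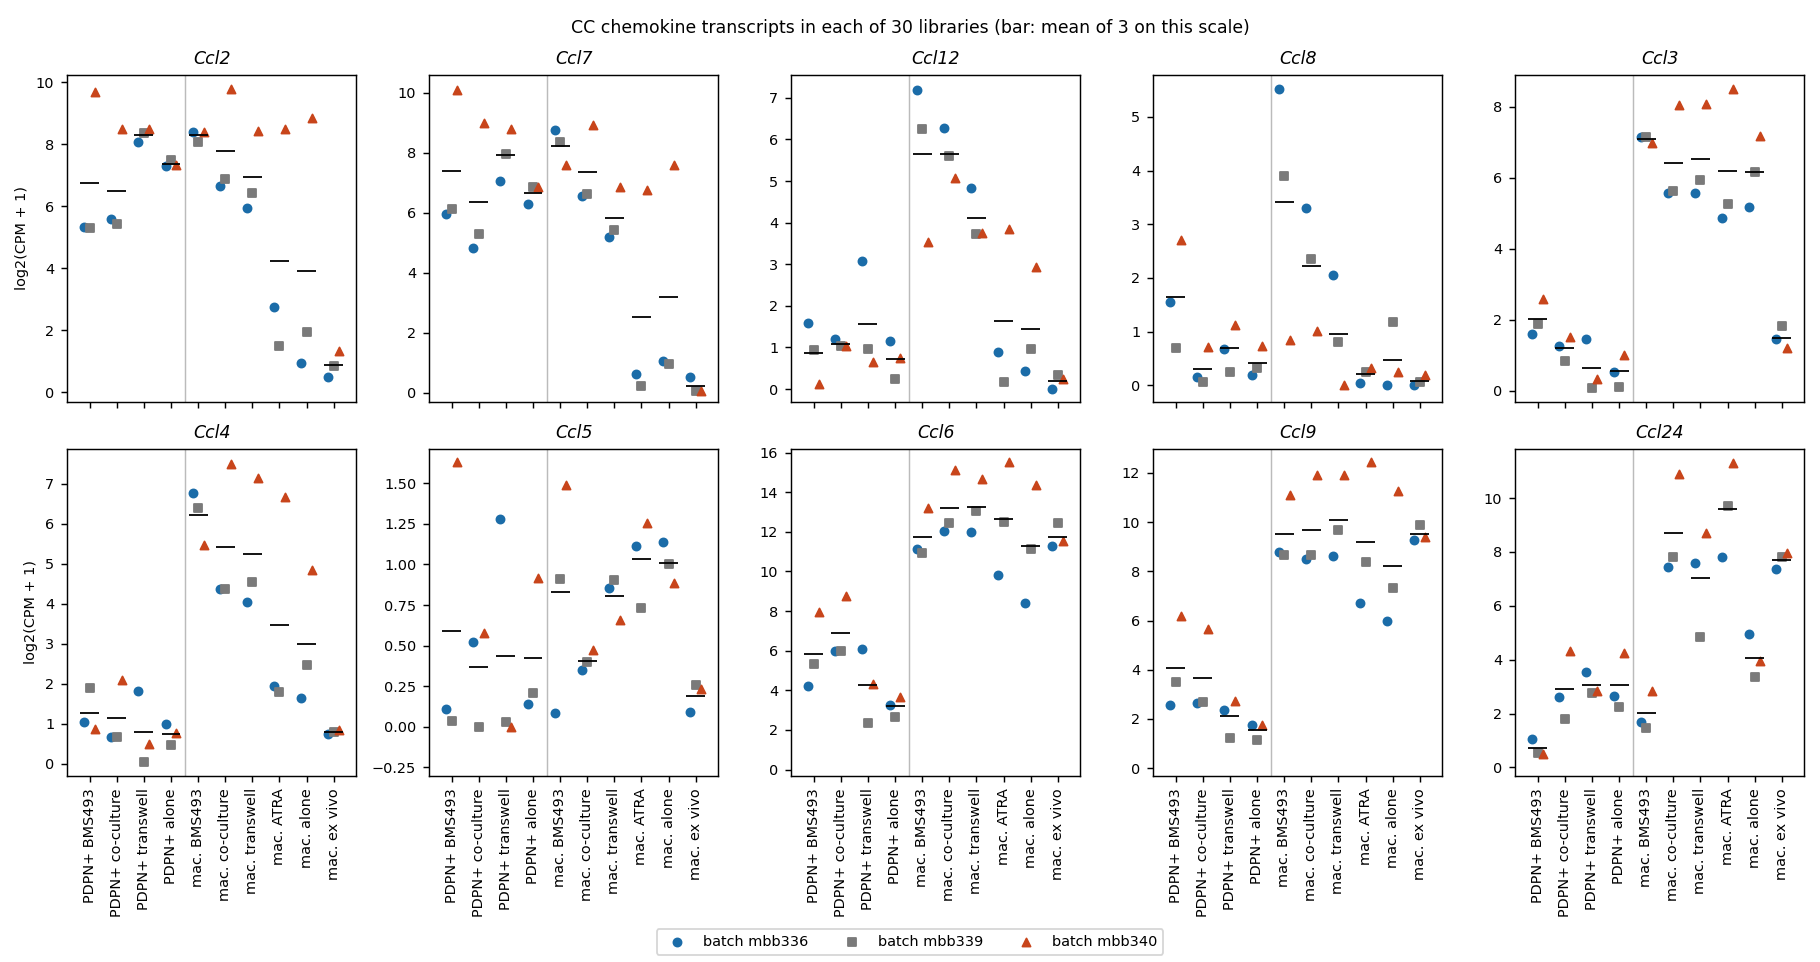
Levels of the 10 CC chemokines in the 30 libraries as log2(CPM + 1), with PDPN+ groups left of the grey line and macrophage groups right of it; points are libraries, coloured by batch, and bars are means of 3. Ccl6 and Ccl9 sit high in every macrophage group with the batch mbb340 point above the points of both other batches in all 5 cultured groups, while macrophage Ccl24 lies at 6.18 CPM or less with BMS493 and at 171 CPM or more in co-culture.

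Of the 10 genes, 9 lie on chromosome 11 in 2 clusters (GRCm38). Ccl2, Ccl7, Ccl12 and Ccl8 follow each other on the plus strand within 81229 bases, from 82035571 to 82116799. Ccl5, Ccl9, Ccl6, Ccl3 and Ccl4 lie within 138906 bases, from 83525778 to 83664683, all on the minus strand except Ccl4. Ccl24 lies alone on the minus strand of chromosome 5, from 135569937 to 135573049. Promoter sequences of RefSeq on GRCm38.p6, 250 bases before to 50 after the start, were matched for 5 genes, Ccl12, Ccl8, Ccl9, Ccl6 and Ccl3. The promoters of Ccl9 and Ccl6 are shown because these neighbours were the most abundant members ex vivo and went together across the macrophage libraries. Capitals mark matches on either strand to the kappaB consensus or to the AP-1 motif TGANTCA. The Ccl9 window is chr11:83578587-83578886 and the Ccl6 window chr11:83593038-83593337, both printed from the minus strand.
Ccl9: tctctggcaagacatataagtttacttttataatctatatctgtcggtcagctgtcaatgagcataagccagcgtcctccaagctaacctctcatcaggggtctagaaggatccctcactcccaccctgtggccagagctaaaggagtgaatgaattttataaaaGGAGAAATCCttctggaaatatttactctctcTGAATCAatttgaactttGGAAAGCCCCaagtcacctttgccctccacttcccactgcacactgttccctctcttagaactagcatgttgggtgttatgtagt
Ccl6: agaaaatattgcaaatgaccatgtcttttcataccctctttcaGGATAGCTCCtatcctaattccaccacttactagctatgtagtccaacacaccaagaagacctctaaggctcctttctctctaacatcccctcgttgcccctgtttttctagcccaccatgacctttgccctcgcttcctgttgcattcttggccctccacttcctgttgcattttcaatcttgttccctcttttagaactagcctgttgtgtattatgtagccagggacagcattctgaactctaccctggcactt
The Ccl9 window held 2 kappaB matches, GGAGAAATCC and GGAAAGCCCC, and 1 AP-1 match, TGAATCA. The Ccl6 window held 1 kappaB match, GGATAGCTCC, and no AP-1 match. The windows of Ccl12, Ccl8 and Ccl3 held neither of these motifs, and none of the 5 held the STAT6 motif, TTC and GAA with 4 bases of any kind between them. Of 32851 promoter windows of the same length, 26.8% held a kappaB match, 7.81% an AP-1 match and 6.95% a STAT6 match. The 4 matches in capitals do not overlap.

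Levels of different genes were compared per length, with the authors' RPKM. Ccl6 was the highest member in all 6 macrophage groups, with median RPKM from 1543 in culture alone to 6013 in transwell culture. Ex vivo, Ccl6 (1749 to 3957 RPKM), Ccl9 (211 to 321) and Ccl24 (128 to 188) stood above the other 7, whose medians were 2.35 RPKM or less, and the ranges of Ccl6 and Ccl9 overlapped with no other member's. With BMS493 the order behind Ccl6 was Ccl2, Ccl7, Ccl3, Ccl9, Ccl12, Ccl4 and Ccl8, at median 424, 411, 183, 151, 138, 124 and 27.2 RPKM, and their ranges overlapped between each neighbouring pair except Ccl7 and Ccl3. Ccl24 was at 1.75 RPKM there and Ccl5 at 1.65 RPKM. PDPN+ cells had another order. Ccl2 (193 to 224 RPKM) and Ccl7 (97.2 to 151 RPKM) led in PDPN+ cells cultured alone, and no other member passed 14.7 RPKM there. Ccl6 and Ccl9 together made up 0.92% to 44.6% of the summed CPM of the members in PDPN+ cells and 69% to 97.4% in macrophages. Unlike the RPKM values, this share is not per length, and Ccl9 and Ccl6 have exons of 3045 and 1795 bases.

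Ccl24 gave the only call of a member among the comparisons between cultured macrophage groups. It fell to 2.23, 1.79 and 6.18 CPM with BMS493, against 171, 224 and 1880 CPM in co-culture. The groups did not overlap. The log2 fold change was -7.81 ± 1.35 (SE, n = 3 each) with an adjusted p of 0.0129 from edgeR's quasi-likelihood test, and within batches the log2 ratio was -6.26, -6.96 and -8.25. Of all genes tested in this comparison 0.85% were called, and Ccl24 was the 1 member called of 10. With batch as a block the adjusted p was 0.00246. The call held in 4 of 6 fits that each left out 1 library. It was lost without BMS493 replicate 1 (adjusted p = 0.0923) or 2 (adjusted p = 0.105). Without batch mbb336 or mbb339 as a whole it was lost too, where 13 and 3 of all genes were called. Among the PDPN+ libraries Ccl24 was at 1.08, 0.465 and 0.424 CPM with BMS493 and at 5.14, 2.52 and 19.2 CPM in co-culture, again without overlap (log2 fold change -3.77 ± 0.885, adjusted p = 0.434, n = 3 each, edgeR).

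Ccl24 was also the member that differed most between ATRA and culture alone. With ATRA it was at 224, 830 and 2515 CPM, against 29.9, 9.21 and 14.3 CPM in macrophages cultured alone. The groups did not overlap, and within batches the ratio was 7.5, 90.1 and 176. The log2 fold change of 6.02 ± 1.24 had an adjusted p of 0.0641 in edgeR (n = 3 each), so no member was called among 0.326% of all genes. Of the 10 members 1 had an unadjusted p under 0.05, as had 1350 of 17774 genes, and DESeq2 called 1, Ccl24, among 328 genes. With batch as a block the change was 5.55 ± 0.959 with an adjusted p of 0.0166, among 0.805% of all genes called. The other 9 members had no such value: their log2 ratios within batches lay between -2.71 and 2.64 in pairs with at least 4 counts in each library. Ccl12 in batch mbb339 fell short of that minimum, at 0.116 CPM with ATRA against 0.959 CPM in culture alone, and so did Ccl8 in batch mbb336, at 0.0331 against 0 CPM.

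In co-culture, too, Ccl24 stood above culture alone. Its 171, 224 and 1880 CPM compare with 29.9, 9.21 and 14.3 CPM in macrophages cultured alone, a log2 fold change of 5.36 ± 1.21 with an adjusted p of 0.0581 in edgeR (n = 3 each). With batch as a block it was 4.57 ± 0.921 with an adjusted p of 0.0214, among 2.41% of all genes called. Transwell macrophages had 191, 27.5 and 412 CPM (log2 fold change 3.53 ± 1.11 over culture alone, adjusted p = 0.312 in edgeR, n = 3 each). Here the groups overlapped, since 27.5 CPM in batch mbb339 was below 29.9 CPM in batch mbb336 of culture alone, although the transwell library was the higher in each batch. With BMS493, the 2.23, 1.79 and 6.18 CPM lay below those of culture alone without overlap (log2 fold change -2.45 ± 1.07, adjusted p = 0.315 in edgeR, n = 3 each). Ccl24 fell to 29.9, 9.21 and 14.3 CPM in culture alone, against 163, 226 and 246 CPM ex vivo. That change of -3.56 ± 1.11 had an adjusted p of 0.0366 in edgeR, which lay between 0.052 and 0.127 when any 1 library was left out and was 0.00886 with batch as a block. The 5 eosinophil markers summed to 0.211 to 4.2 CPM over the macrophage libraries, and Epx, the eosinophil peroxidase gene, was at 0 in all 18, which allows up to 0.0648 to 0.12 CPM per library (3 counts on the TMM-scaled CPM, counting error only).

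The neighbours Ccl2, Ccl7, Ccl12 and Ccl8 were at 1.53 CPM or less in every ex vivo macrophage library. In batches mbb336 and mbb339, Ccl2 was at 338.70 and 271 CPM with BMS493, at 99.6 and 117 CPM in co-culture and at 60 and 85.8 CPM in transwell culture, against 0.915 and 2.88 CPM in culture alone. In batch mbb340 the same cultures gave 339.02, 881 and 346 CPM, against 459 CPM in culture alone. The single library of macrophages cultured alone in batch mbb340 was thus as high as the groups set against it, and the groups overlapped for Ccl2. Ccl7 had the same order in batches mbb336 and mbb339, at 435, 330 and 190 CPM with BMS493, 92.4, 98.2 and 481 CPM in co-culture, 35.5, 41.6 and 114 CPM in transwell culture, and 1.06, 0.915 and 191 CPM in culture alone.

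Ccl12 did not overlap between any of these cultures and culture alone. It was at 146, 74.6 and 10.6 CPM with BMS493, 76.1, 47.6 and 32.5 CPM in co-culture and 27.4, 12.2 and 12.5 CPM in transwell culture, against 0.352, 0.959 and 6.62 CPM in culture alone. Its lowest value in BMS493 was that of batch mbb340, and so was its lowest in co-culture, where Ccl2 and Ccl7 were highest in that batch. Ccl8 was at 44.6, 13.9 and 0.803 CPM with BMS493, at 8.87, 4.12 and 1.01 CPM in co-culture and at 3.14, 0.75 and 0 CPM in transwell culture, against 0, 1.27 and 0.184 CPM in culture alone. Its batch mbb340 values lay at or below 1.01 CPM in all 6 macrophage groups.

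Over the 3 batches together no member was called by edgeR in co-culture against culture alone, where 0.698% of all genes were. There, 3 members (Ccl24, Ccl12 and Ccl5) had an unadjusted p under 0.05, among 2282 of 17774 genes, and DESeq2 called 2 members among 703 genes. For Ccl12 the log2 fold change was 4.30 ± 1.39 with an adjusted p of 0.188 (n = 3 each). Transwell culture gave no member either, among 0.0281% of all genes. At an unadjusted p under 0.05 was 1 member among 1700 genes, and DESeq2 called 1 member among 259 genes. Against culture alone, BMS493 gave 0 members in edgeR among 0.737% of all genes. At an unadjusted p under 0.05 were 3 members among 2556 genes, and DESeq2 called 2 members among 704 genes. Ccl12 had a log2 fold change of 4.84 ± 1.43 there and Ccl8 5.22 ± 1.69 (adjusted p = 0.139 and 0.18, n = 3 each). With batch as a block Ccl4 was called in that comparison (4.14 ± 0.974, adjusted p = 0.0434), among 2.32% of all genes. Co-culture and transwell culture differed in no member and in 0.0394% of all genes. At an unadjusted p under 0.05 were 0 members among 794 genes, and DESeq2 called 0 among 150.

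Without batch mbb340 Ccl2, Ccl7 and Ccl12 of the first cluster passed the test in all 3 comparisons with culture alone, each with 2 libraries a group. In co-culture against culture alone, Ccl7 (6.52, adjusted p = 0.0039), Ccl12 (6.42, 0.00787), Ccl2 (5.71, 0.00417) and Ccl4 (2.46, 0.00787) were called higher by edgeR, 4 of 10 members among 5.15% of all genes. Transwell culture gave the same 4 genes among 1.79% of all genes, at log2 fold changes of 5.25 for Ccl7, 5.18 for Ccl2, 4.81 for Ccl12 and 2.43 for Ccl4. BMS493 gave 6 members among 7.09% of all genes: Ccl7 at 8.52, Ccl12 at 7.24, Ccl2 at 7.20, Ccl8 at 5.36, Ccl4 at 4.73 and Ccl3 at 1.33. Set against co-culture without batch mbb340, BMS493 gave Ccl4 at 2.27 and Ccl3 at 1.56 beside Ccl24 at -6.62, 3 members among 1.74% of all genes, where the block gave Ccl24 alone among 1.8%. These comparisons share the culture-alone or the co-culture libraries and do not add to each other. Batch mbb340 was set apart after its chemokine values were seen. Without batch mbb336 or mbb339 instead, 0 members were called in co-culture, transwell culture or BMS493 against culture alone. All genes called in these 3 comparisons were 14, 1 and 14 without mbb336 and 0 in each without mbb339.

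**Figure D2:**
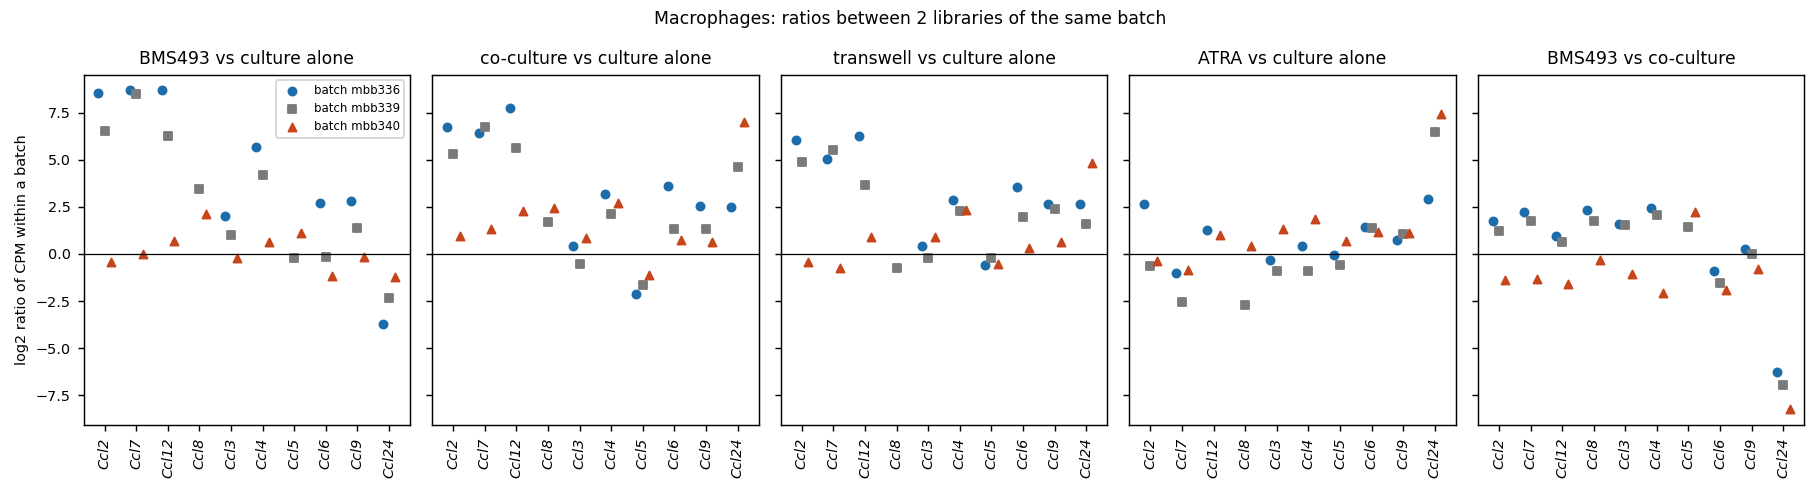
Log2 ratio of CPM between 2 macrophage libraries of the same batch, for 5 comparisons and 10 genes; each point is 1 pair of libraries, and pairs with under 4 counts are not drawn. In the panels of BMS493, co-culture and transwell over culture alone, the ratios of Ccl2, Ccl7 and Ccl12 lie between 3.67 and 8.69 in batches mbb336 and mbb339 and between -0.74 and 2.3 in batch mbb340, and Ccl24 lies below 0 in all 3 batches of both BMS493 panels.

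Markers of stromal cells were also detected in these macrophage libraries. Col1a1, a fibroblast collagen, was at 190 to 255 CPM with BMS493, 68.2 to 295 CPM in co-culture and 4.62 to 9.47 CPM in transwell culture, against 1.41 to 7.92 CPM in culture alone. The 8 mesothelial markers summed to 0.923 to 22.5 CPM with BMS493, 0.357 to 25.9 CPM in co-culture and 0.308 to 0.632 CPM in transwell culture, against 0 to 1.2 CPM in culture alone. The 12 fibroblast markers summed to 1395 to 3515, 6085 to 13412, 7027 to 10681 and 213 to 3301 CPM in the same 4 groups. Most of these sums was Fn1, the fibronectin gene, which alone was at 744 to 2592, 4882 to 12936, 6978 to 10646 and 199 to 3168 CPM in them, and at 17011 to 28657 CPM in ex vivo macrophages. The part of this RNA in the chemokine values was not tested.

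Ccl3 and Ccl4, which share the second cluster, differed between culture and the ex vivo state. Ccl3 rose to 35, 71 and 144 CPM in culture alone, against 1.77, 2.53 and 1.3 CPM ex vivo. The groups did not overlap, and the log2 fold change of 5.45 ± 1.12 (adjusted p = 0.00359 in edgeR, n = 3 each) passed in all 6 fits that left out 1 library and was lost without batch mbb339 as a whole (5.86, adjusted p = 0.079). Ccl4 was at 2.11, 4.55 and 27.4 CPM in culture alone and at 0.665, 0.714 and 0.78 CPM ex vivo (3.94 ± 1.51, adjusted p = 0.0867 in edgeR, n = 3 each), and was called with batch as a block (3.06 ± 1.02, adjusted p = 0.0437). Ccl5, a chemokine of activated T cells and macrophages, rose to 1.2, 1 and 0.846 CPM, against 0.0633, 0.195 and 0.173 CPM ex vivo (2.77 ± 0.782, adjusted p = 0.0227 in edgeR, n = 3 each). That call held in 2 of 6 fits that left out 1 library and was lost without batch mbb340 (adjusted p = 0.0613). No library of the series had more than 2.1 CPM of Ccl5. Ccl4 was at 107, 82.4 and 43.3 CPM with BMS493, 19.5, 19.5 and 180 CPM in co-culture and 15.3, 22.1 and 140 CPM in transwell culture, and lay above culture alone in every batch. Within the cultured groups Ccl3 varied least with BMS493, at 142, 141 and 126 CPM, and spread from 46.6 to 264 CPM in co-culture and from 28.3 to 359 CPM with ATRA.

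In the same comparison Ccl7 and Ccl2 were called higher in culture alone, with log2 fold changes of 8.58 ± 2.61 (adjusted p = 0.0333 in edgeR, n = 3 each) and 7.37 ± 2.35 (adjusted p = 0.0415). Both values rest on the culture-alone library of batch mbb340, without which the log2 fold change was 2.65 for Ccl7 (adjusted p = 0.428) and 1.14 for Ccl2 (adjusted p = 0.699). Ccl7 had 1.06, 0.915 and 191 CPM there and 0.443, 0.0432 and 0.0289 CPM ex vivo, and Ccl2 had 0.915, 2.88 and 459 CPM against 0.411, 0.778 and 1.53 CPM. The groups did not overlap for Ccl7 and did for Ccl2. Without batch mbb340 the change of Ccl7 was 2.16 (adjusted p = 0.0456) and that of Ccl2 1.66 (adjusted p = 0.1), and the block gave Ccl7 an adjusted p of 0.0621. In all, 5 members of 10 were called, 4 higher and 1 lower, among 17.8% of all genes. The block called 5 among 24.2% and the fit without batch mbb340 called 5 among 19.4%. The median log2 fold change of the 10 members was 3.44 and that of all genes 0.08.

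Ccl6 and Ccl9 were abundant in every macrophage group, and batch mbb340 was the highest in each of the 5 cultured groups. Ccl6 was at 343, 2209 and 21193 CPM in culture alone and at 2476, 5549 and 2939 CPM ex vivo. Ccl9 was at 62.9, 159 and 2496 CPM in culture alone and at 622, 941 and 681 CPM ex vivo. Culture alone was thus below the ex vivo level for both genes in batches mbb336 and mbb339 and above it in batch mbb340. Averaged over the 3 batches the log2 fold change of Ccl9 was 0.24 ± 1.45 (adjusted p = 0.943 in edgeR, n = 3 each), with batch as a block it was -1.79, and without batch mbb340 it was -2.82 with an adjusted p of 0.00881. Over culture alone, Ccl6 was higher within each batch with ATRA (2.67, 2.64 and 2.25 times), in co-culture (12.3, 2.52 and 1.67 times) and in transwell culture (11.6, 3.85 and 1.24 times), and none of these differences was called. With BMS493 Ccl6 was at 2261, 1950 and 9413 CPM and Ccl9 at 447, 408 and 2211 CPM, where the ranges of both genes overlapped with culture alone.

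Batch was fitted beside group in the 18 macrophage libraries, since each batch holds 1 library of every group. Of the 10 members 5 differed between batches in edgeR, among 14.7% of all genes, namely Ccl9 (adjusted p = 0.00332), Ccl6 (0.00817), Ccl4 (0.0193), Ccl2 (0.026) and Ccl3 (0.0267). Ccl9 and Ccl6 kept the call in all 18 fits that left out 1 library, Ccl4 in 14, Ccl2 in 13 and Ccl3 in 8. Batch mbb340 was above batch mbb336 for the 5 genes (20.7% of all genes called), by log2 fold changes of 4.18 ± 1.11 for Ccl2, 3.55 ± 0.590 for Ccl9, 3.33 ± 0.635 for Ccl6, 2.82 ± 0.711 for Ccl4 and 1.94 ± 0.486 for Ccl3. It was above batch mbb339 for 4 of them, without Ccl3 (7.92% of all genes called), of which Ccl9 held in 18 of 18 fits that left out 1 library, Ccl6 in 7, Ccl4 in 6 and Ccl2 in 5. Batches mbb339 and mbb336 differed in no member and 0% of all genes in edgeR, with 0 members and 1388 genes at an unadjusted p under 0.05. Within the ex vivo group batch mbb340 was not the highest of the 3 for Ccl6 (2939 CPM) or Ccl9 (681 CPM). With the ex vivo group left out, a choice made after the data were seen, Ccl24 was called as well, with an adjusted p of 0.0491. All genes called were then 3768, against 2604 with that group in the fit.

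**Figure D3:**
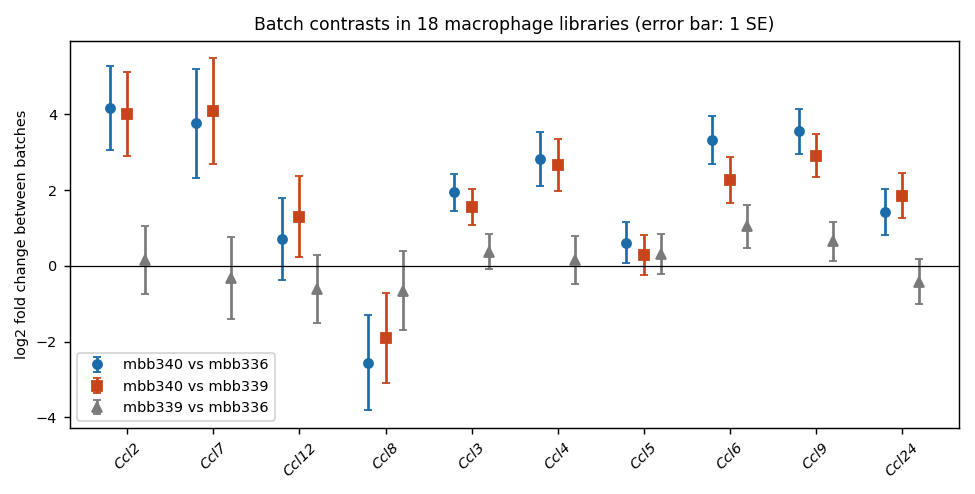
Fitted log2 fold change between batches for each chemokine in the 18 macrophage libraries, with group in the model; error bars are 1 SE. The contrasts of batch mbb340 lie above 0 for 9 of the 10 genes, Ccl8 being the exception, and those of batch mbb339 against mbb336 lie between -0.65 and 1.05.

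Genes that induce chemokines differed between the same batches. Il1b averaged 201 ± 196 CPM in batch mbb340 and 1.92 ± 1.3 CPM in batch mbb336 (log2 fold change 6.06 ± 1.3, adjusted p = 0.00693 in edgeR, n = 6 each), and Il1a 383 ± 263 and 30.8 ± 21.6 CPM (3.53 ± 0.575, adjusted p = 0.00217). Csf1r, the receptor for the macrophage growth factor, was lower at 1021 ± 299 CPM in mbb340 against 2993 ± 1524 CPM in mbb336 (-1.46 ± 0.288, adjusted p = 0.00483). Of 12 tested genes of the list of inducers and their receptors, 3 were higher and 4 lower in batch mbb340 than in mbb336, among 20.7% of all genes called in either direction. Of 12 NF-kappaB subunits and feedback inhibitors, 4 were higher and 1 lower against the same 20.7%, among them Tnfaip3, an NF-kappaB inhibitor, at 106 ± 52.6 CPM in mbb340 against 36 ± 11.8 CPM in mbb336. The 7 neutrophil markers summed to 46.1 to 124 CPM in cultured macrophages of batch mbb340 and to 4.75 to 33.7 CPM in those of batches mbb339 and mbb336, with Ly6g at 0 in all of them. Nearly all of these sums was S100a8, at 4.23 to 123 CPM over the cultured macrophage libraries, and no other marker of the list was above 1.04 CPM in any of them. The part of these differences in the chemokine values was not tested.

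PDPN+ cells held Ccl2 and Ccl7 transcripts in every culture. Ccl2 was at 38.8, 38 and 825 CPM with BMS493, 46.7, 41.9 and 361 CPM in co-culture and 271, 329 and 358 CPM in transwell culture, against 155, 177 and 159 CPM in culture alone. In batches mbb336 and mbb339 the direct co-culture and BMS493 libraries were lower than culture alone by 3.31 to 4.67 times, and in batch mbb340 they were higher. Ccl7 was at 60.8, 68.7 and 1101 CPM with BMS493, 27.1, 38.1 and 505 CPM in co-culture and 131, 246 and 440 CPM in transwell culture, against 76.8, 115 and 115 CPM in culture alone. The transwell libraries were the only ones in which both genes exceeded culture alone in every batch. PDPN+ co-culture replicates 2 and 3 came from the fewest cells, 3730 and 2148.

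No member was called by edgeR in any of the 5 PDPN+ comparisons. Co-culture against culture alone had 0% of all genes called and 1796 at an unadjusted p under 0.05, of which 2 were members (Ccl6 and Ccl9). DESeq2 called both, among 346 genes. Transwell culture against culture alone had 0% called and 426 genes, none a member, at an unadjusted p under 0.05, with 0 members among 16 genes by DESeq2. Co-culture against transwell culture had 0.00523% of all genes called and BMS493 against co-culture 0.0157%. At an unadjusted p under 0.05 were 0 and 2 members among 966 and 584 genes. DESeq2 called 0 and 1 members among 137 and 112 genes. BMS493 against culture alone had 0.24% of all genes called by edgeR, and 5 members among 2060 genes at an unadjusted p under 0.05. DESeq2 called 3 members (Ccl24, Ccl6 and Ccl9) among 697 genes. Batch was not called for any member in PDPN+ cells (0% of all genes, 2218 of them and 4 members at an unadjusted p under 0.05, 4 members among 1118 genes by DESeq2).

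Ccl6 and Ccl9 in co-culture PDPN+ cells stood at shares of the macrophage level near those of macrophage marker genes. Ccl6 was at 61.5, 62.5 and 435 CPM in PDPN+ cells from co-culture, against 8.72, 5.21 and 11.6 CPM in those cultured alone. These co-culture values were 1.46%, 1.12% and 1.23% of the macrophage level in the same batch, and those of Ccl9 1.44%, 1.34% and 1.31%. The median of 12 macrophage markers was at 1.98%, 1.46% and 1.69%. Ccl2 stood far above that share, at 46.9%, 35.8% and 41% of the macrophage level in co-culture and at 451%, 384% and 103% in transwell culture. Ccl7 in transwell culture was at 370%, 592% and 386%. Ccl9 itself was at 5.25, 5.41 and 50 CPM in PDPN+ cells from co-culture, against 2.39, 1.19 and 2.4 CPM in those cultured alone. The part of macrophage RNA in the Ccl6 and Ccl9 values was not tested. Ccl24 was at 1.08, 0.465 and 0.424 CPM in PDPN+ cells with BMS493, against 5.29, 3.71 and 18.1 CPM in those cultured alone (-3.82 ± 0.887, adjusted p = 0.127 in edgeR, n = 3 each), and the groups did not overlap.

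**Figure D4:**
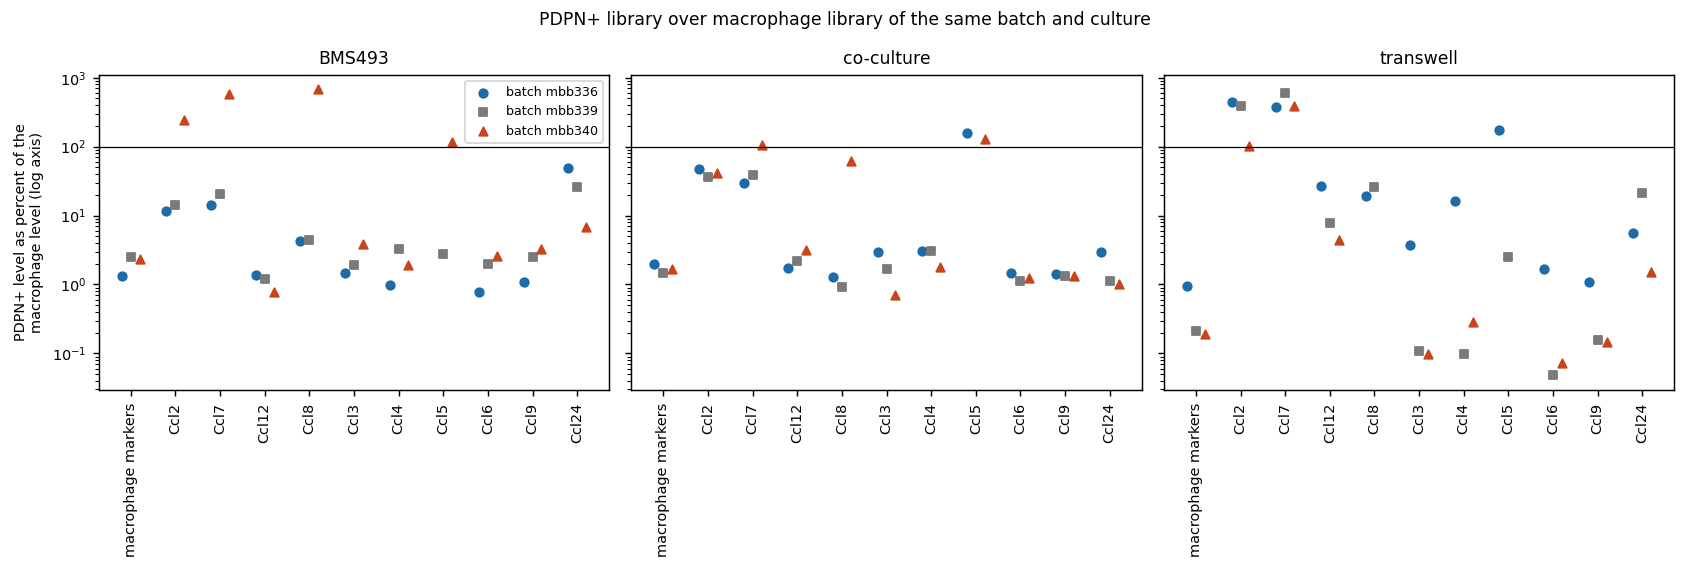
Level in the PDPN+ library as a percent of the level in the macrophage library of the same batch and culture, on a log axis, for the median of 12 macrophage markers and for each chemokine; a ratio with 0 on either side or too few counts is not drawn, and the horizontal line marks 100%. In co-culture Ccl3, Ccl4, Ccl6, Ccl9, Ccl12 and Ccl24 lie between 0.696% and 3.19%, close to the markers, and Ccl2 lies between 35.8% and 46.9%. In culture alone, not drawn, the marker median was at 0.208%, 0.138% and 0.207%. Ccl24 was there at 17.7%, 40.3% and 127%, Ccl12 at 348%, 18.9% and 10%, and Ccl4 at 46.2%, 8.55% and 2.56%. Ccl3, Ccl6 and Ccl9 were at 3.8% or less in culture alone.

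Set directly against macrophages, PDPN+ cells were lower in Ccl6, Ccl9, Ccl3 and Ccl4, and Ccl5 was called in neither comparison. Among cells cultured alone, Ccl6 (-9.86 ± 1.96, adjusted p = 0.00033), Ccl9 (-8.82 ± 1.93, 0.000841), Ccl3 (-7.32 ± 1.28, 8.18e-05) and Ccl4 (-4.03 ± 1.45, 0.0314) were called lower in PDPN+ cells by edgeR (log2 fold change ± SE, n = 3 each), 4 of 10 members among 38.9% of all genes. The first 3 held in all 6 fits that left out 1 library and Ccl4 in 2. Ccl2 was at 155, 177 and 159 CPM in PDPN+ cells, against 0.915, 2.88 and 459 CPM in macrophages (0.09 ± 1.61, adjusted p = 0.976). Without batch mbb340 it was called higher in PDPN+ cells, at 6.34 with an adjusted p of 2.77e-06, as was Ccl7 at 6.52 with 3.72e-06, 2 of the 5 members then called among 36.8% of all genes. In co-culture 7 members were called lower in PDPN+ cells among 32.4% of all genes, Ccl3, Ccl24, Ccl6, Ccl9, Ccl4, Ccl12 and Ccl8, at log2 fold changes between -6.48 and -4.15. Ccl8 held in 2 of 6 fits that left out 1 library. Of these 7 members 2, Ccl24 and Ccl3, were called without batch mbb339, among 2548 genes. Without batch mbb340 9 members were called, among 29.4% of all genes.

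The response to co-culture was also compared between the cell types. For Ccl24 the effect of co-culture over culture alone was lower in PDPN+ cells than in macrophages by a log2 difference of -5.43 ± 1.44, with an adjusted p of 0.0702 in edgeR. With batch as a block it was -4.89 ± 1.12 with an adjusted p of 0.0231, among 1.8% of all genes called. Without the block 0 members were called among 0.986% of all genes. At an unadjusted p under 0.05 was 1 member among 2280 genes, and DESeq2 called 1 member among 688 genes. Without batch mbb340 the difference was called for Ccl7 (-8.24, adjusted p = 0.000568) and Ccl2 (-7.81, adjusted p = 0.000568), among 1.53% of all genes: in these 2 batches both were lower in co-culture than in culture alone in PDPN+ cells, and higher in macrophages. Without batch mbb336 or mbb339 instead, 0 members were called, among 100 and 2 genes. The transwell effect differed between cell types in 0 members and 0% of all genes in edgeR, with 1 member and 931 genes at an unadjusted p under 0.05. DESeq2 called 0 members among 33 genes. The difference between BMS493 and co-culture differed between cell types in 0 members and 0.00953% of all genes. At an unadjusted p under 0.05 was 1 member among 846 genes, and DESeq2 called 0 members among 56 genes.

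Receptors for these chemokines were measured in the same libraries. Ccr1, which Ccl3, Ccl5, Ccl6 and Ccl9 share, averaged 14 ± 2.9 CPM in PDPN+ cells from co-culture and 880 ± 64.4 CPM in macrophages from co-culture (log2 fold change -5.98 ± 0.759, adjusted p = 2.58e-06 in edgeR, n = 3 each). Among cells cultured alone Ccr1 was at 0.221 ± 0.229 CPM in PDPN+ cells and 446 ± 230 CPM in macrophages (-10.97 ± 0.95, adjusted p = 5.28e-09). Ex vivo macrophages had 503 ± 62 CPM of it. The part of macrophage RNA in the Ccr1 value of PDPN+ cells from co-culture was not tested. Ccr2, the receptor for Ccl2, Ccl7 and Ccl12, fell to 2.39 ± 0.586 CPM in culture alone, against 19.8 ± 17.2 CPM ex vivo (-3.05 ± 0.699, adjusted p = 0.00704). It was the 1 receptor called in that comparison of 6 tested of 10, among 17.8% of all genes called. Ccr3, the receptor for Ccl24, stayed at 6.16 CPM or less in all macrophage libraries. No CC receptor of 6 tested was called with ATRA, co-culture, transwell culture or BMS493 in macrophages, where 0.0281% to 0.85% of all genes were. In PDPN+ cells, which had no ATRA group, no receptor of 7 tested was called, where 0% to 0.24% of all genes were. The effect of co-culture over culture alone differed between cell types in 1 of 8 receptors, among 0.986% of all genes.

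The atypical receptors bind chemokines or related ligands without classical signalling. Ackr3, a scavenger of Cxcl12, rose to 23.9 ± 23.9 CPM in co-culture macrophages, against 0.2 ± 0.213 CPM in culture alone (6.71 ± 1.3, adjusted p = 0.0269 in edgeR, n = 3 each). It fell to 0.319 ± 0.0978 CPM with BMS493, against that co-culture level (-6.22 ± 1.27, adjusted p = 0.0306), and ex vivo macrophages had 44.4 ± 11.9 CPM. Ccrl2, a chemerin-binding relative, fell to 12.9 ± 3.09 CPM with BMS493, against 33.4 ± 10.3 CPM in co-culture (-1.39 ± 0.293, adjusted p = 0.0372). Unlike Ackr3, it was also called lower with BMS493 than in culture alone, at 47.5 ± 13.2 CPM there (-1.94 ± 0.298, adjusted p = 0.00988). Of 3 atypical receptors tested, 2 fell with BMS493 against co-culture, where 0.85% of all genes were called in either direction. In co-culture against culture alone 1 of the 3 was called, among 0.698% of all genes, and in BMS493 against culture alone 1, among 0.737%.

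Tnf, an inducer of NF-kappaB, rose to 13.9 ± 9.65 CPM in culture alone, against 0.876 ± 0.394 CPM ex vivo (3.98 ± 0.749, adjusted p = 0.00197 in edgeR, n = 3 each), and 3 of 12 tested genes of the list rose and 0 fell. Of 12 NF-kappaB genes 3 rose and 0 fell in that comparison, in which 17.8% of all genes were called in either direction. Relb was the largest of them at 49.6 ± 2.9 CPM, against 15 ± 4.81 CPM ex vivo (1.72 ± 0.306, adjusted p = 0.00128). Neither list had a called gene with ATRA, co-culture, transwell culture or BMS493 in macrophages, where 0.0281% to 0.85% of all genes were called. Of 11 further CC chemokines 5 were tested in macrophages. Ccl17 stayed at 2.44 CPM or less and Ccl22 at 8.61 CPM or less in every macrophage library, and 1 of the 5 was called higher in culture alone than ex vivo.

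As a description, the genes closest in pattern to each member were taken by Pearson correlation of log2(CPM + 1) over the 18 macrophage libraries, which share batches and groups. Ccl24 was closest to Klhl12 (r = 0.959, Spearman rho = 0.959) and to P2rx1, an ATP-gated ion channel gene (r = 0.922, rho = 0.822). P2rx1 was at 0.22, 1.3 and 0.401 CPM with BMS493, 45.7, 69.7 and 63.2 CPM in co-culture and 97.2, 230 and 197 CPM with ATRA, against 9.01, 2.39 and 1.8 CPM in culture alone. Like Ccl24 it was on average lowest with BMS493 and highest with ATRA, with 97.2 CPM or more in each ATRA library. Ccl3 was closest to Cstb, a cystatin gene (r = 0.986, rho = 0.95), and Ccl2 to Sccpdh (r = 0.966, rho = 0.899). Among members the closest pairs were Ccl2 with Ccl7 (r = 0.98, rho = 0.9), Ccl2 with Ccl4 (r = 0.96, rho = 0.94), Ccl4 with Ccl7 (r = 0.94, rho = 0.92) and Ccl6 with Ccl9 (r = 0.94, rho = 0.81). Ccl24 had r between -0.49 and 0.44 with every other member.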

How the data were processed

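PolyA RNA of 30 libraries was measured, 18 of macrophages and 12 of PDPN+ cells. Per the submitters' processing notes, reads were aligned with GSNAP to GRCm38. Per the file headers, the authors deposited for each of 50764 gene models a raw count of uniquely aligning reads and an RPKM that they had adjusted by size factors. The 10 members, the marker lists and the pathway lists were chosen with earlier results of these data known.

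Counts were tested with the quasi-likelihood F test of edgeR 4.0.16 (R 4.3.3) after TMM scaling and filterByExpr, in 1 fit of the 18 macrophage libraries (17774 genes), 1 of the 12 PDPN+ libraries (19134 genes) and 1 of all 30 (20987 genes), with group as the only term; batch effects were fitted as group plus batch. Genes were called at a Benjamini-Hochberg adjusted p under 0.05 over all genes tested. An SE is the absolute log2 fold change divided by the square root of F. CPM levels use TMM factors over all 30 libraries, and RPKM was used to compare genes. All 10 members are described; of each pathway list, called genes that average at least 10 CPM in the higher group are named, at most 4 per comparison by size of change, and of the genes closest in pattern at most 3 per member. Ccr3, Ccl17 and Ccl22 fall outside this rule and were chosen after their values were seen.

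The replicate number is the batch label, so same-numbered samples share a batch. Their deviations from the group means correlated with a median r of 0.186 over 45 pairs of macrophage groups (-0.0883 to 0.635) and of 0.11 over 18 pairs of PDPN+ groups (-0.272 to 0.54). Blocked values are given where they change a call of a member. Alternatives were DESeq2 1.42.0, RLE scaling, no low count filter, fits of only the groups compared, the replicate block, leaving out each library or batch, and, added after the data were seen, leaving out the ex vivo group from the batch fit. The pipeline was tested on simulated data. Counts are reads, not molecules, and the bound given for a gene at 0 covers counting error only. A value after ± is the SE of a log2 fold change or, for a level in CPM, the SD over libraries. Rows without a gene symbol, 192 with 0.0358% of all counts, entered the tests under their gene ID. They were left out of the genes closest in pattern. No pair of replicates agreed within sampling noise.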

Additional observations from a re-analysis of the deposited data

How the results depend on the processing

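Numbers of members called moved by more than 1.5 times as follows. DESeq2 called 1 member with ATRA, 2 in co-culture, 1 in transwell culture and 2 with BMS493, each in macrophages against culture alone. All genes it called there were 328, 703, 259 and 704. In PDPN+ cells it called 2 in co-culture and 3 with BMS493 against culture alone, 1 with BMS493 against co-culture and 4 for batch, and 1 for the difference between cell types in co-culture. All genes it called in these 5 cases were 346, 697, 112, 1118 and 688. Without the low count filter 1 was called with ATRA and 1 in co-culture, among 57 and 150 genes. The replicate block, with batch as the pairing, called 1 each with ATRA, in co-culture and with BMS493 against culture alone, and 1 for the difference between cell types in co-culture. Beside Ccl24, Ccl4 and Ccl7 in the report, it changed no other call of a member. Fitting only the groups compared left 0 for BMS493 against co-culture, among 75 genes.

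Without batch mbb340 4 members were called in co-culture, 4 in transwell culture, 6 with BMS493 against culture alone, 3 with BMS493 against co-culture and 2 for the difference between cell types in co-culture. Without mbb336, 1 was called for culture alone against ex vivo and 0 for BMS493 against co-culture, among 1168 and 13 genes. Without mbb339 the numbers were 0 and 0, and 2 for PDPN+ cells against macrophages from co-culture, among 720, 3 and 2548 genes.

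Leaving out 1 library gave 1 to 4 members for culture alone against ex vivo, 0 to 1 with ATRA, 0 to 1 for BMS493 against co-culture, 3 to 5 and 6 to 7 for PDPN+ cells against macrophages alone and in co-culture, 0 to 1 for the difference in co-culture, 2 to 7 for batch in macrophages and 0 to 2 for batch in PDPN+ cells. All genes called were 2107 to 2984, 17 to 73 and 43 to 138 for the macrophage comparisons in this order. They were 6655 to 7606 and 5068 to 5771 for PDPN+ cells against macrophages, and 121 to 252 for the difference. For batch they were 1216 to 3829 in macrophages and 0 to 831 in PDPN+ cells. In the other comparisons the number of members stayed at 0.

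Signs turned for the log2 fold changes listed next, which cover 84 pairs of a member and a comparison. Among the 126 other pairs signs turned too. They did so for 32 without mbb340, 17 without mbb336, 7 without mbb339 and 15 with the block. Of the fits of these other pairs that left out 1 library, 129 turned the sign. Ccl9, culture alone against ex vivo, was -1.79 with the block and -2.82 without mbb340. In transwell culture Ccl2 was -0.09 and -0.17 without mbb336 and mbb339, and Ccl7 was 2.49 with the block and 5.25 without mbb340. For BMS493 against co-culture, Ccl3 was -0.25 and -0.21 and Ccl4 -0.69 and -0.39 without mbb336 and mbb339. For PDPN+ cells against macrophages cultured alone, Ccl2 was -0.46 and -0.57 without mbb336 and mbb339, and Ccl7 -0.02 without mbb339. With 1 library left out, Ccl9 ran from -2.70 to 0.78 for culture alone against ex vivo. Ccl2 ran from -0.49 to 7.51 in co-culture and from -1.05 to 6.35 in transwell culture, and Ccl7 from -0.71 to 5.96 in transwell culture. For BMS493 against co-culture Ccl3 ran from -0.21 to 1.49 and Ccl4 from -0.36 to 1.97. Between cell types, Ccl2 ran from -0.50 to 6.42 alone and from -3.17 to 0.47 in co-culture, and Ccl7 from -2.91 to 1.0 in co-culture. The co-culture difference between cell types ran from -7.70 to 0.39 for Ccl2 and from -6.94 to 0.33 for Ccl7. RLE scaling changed no call of a member. The cause of these shifts was not tested.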
